A study of Rattus norvegicus with 45 samples.

Results

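Potassium channel genes of the rat hippocampus are described here across CA1, CA3 and the dentate gyrus (DG). Members were all genes on the array whose symbol begins with Kcn followed by a letter, as the deposited dChip tables name them; probe sets that name several genes were left out, and each gene was followed through its probe set with the highest mean of the series' own value table. This gave 74 genes, covered by 113 of the 31099 probe sets, out of 15998 distinct names given to probe sets with a single name. They fell into inward rectifiers (Kir, 15), 2-pore leak channels (K2P, 10), auxiliary subunits (9), EAG, ERG and ELK channels (8), calcium-activated channels and their subunits (7), Kv1 (6), silent Kv subunits (6), Kv7 (4), Kv3 (3), Kv4 (3), Kv2 (2) and 1 sodium-activated channel.

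Potassium channels let potassium leave a neuron and so set its resting potential, the shape of its action potential and its firing pattern. Voltage-gated Kv channels open on depolarisation, inward rectifiers and leak channels hold the membrane near rest, and calcium-activated channels produce the after-hyperpolarisation that follows spikes. In the hippocampus these currents differ between CA1 and CA3 pyramidal cells and dentate granule cells, and the calcium-activated after-hyperpolarisation of CA1 neurons is known for growing with age.

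RNA came from 15 male F344xBN hybrid rats of the colony of the National Institute on Aging, with 1 Affymetrix RAE 230 2.0 array per region and animal. The classes, of 3 animals each, were old restricted poor performers (CRO_PP), old restricted good performers (CRO_GP), old ad libitum poor performers (ALO_PP), old ad libitum good performers (ALO_GP) and middle-aged ad libitum animals (ALMA). Old animals were 28 months of age and middle-aged animals 18 months; how good and poor performers were told apart is not stated in the sources used here. Restricted animals received 10% less food from week 14, then 25% less, and 40% less from week 17. No middle-aged animal was restricted. Each array holds the RNA of whole dissected tissue, so fewer cells of a type and less RNA per cell cannot be told apart.

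Between 58.9% and 67.42% of probe sets were called present on an array. Region markers followed the labels in part. Wfs1 and Pou3f1, 2 of the 3 tested markers of CA1, were lower in CA3 and DG than in CA1, in restricted and in ad libitum animals alike. The third, Mpped1, did not pass the threshold used below in CA3 or DG against CA1. Under both diets the 5 tested CA3 markers were higher in CA3 than in CA1. Of the dentate markers, Dsp and Calb1 were higher in DG than in CA3, but only Dsp was higher in DG than in CA1, under both diets. Prox1 was present on 6 of 45 arrays, Tdo2 on 2 and the CA3 marker Iyd on 0. The spiked control transcript DapX divided the arrays into 3 sets by its series value: the 9 ALMA arrays (533.9 to 700.0), 22 arrays of old animals (147.5 to 283.2: all 18 of ad libitum animals, the 3 CRO_GP CA1 arrays and 1 CRO_GP CA3 array) and the other 14 restricted arrays (0.495 to 12.6). Age therefore coincides with a change of set in every region, as diet does in DG, and set and group cannot be told apart there. In restricted good performers all 3 CA1 arrays lie in another set than the 3 DG arrays and 2 of the 3 CA3 arrays, so their regions also coincide with a change of set, as does performance among restricted CA1 arrays. Region differences of restricted animals are therefore also given within the low set. The authors' descriptor sheet marks the CA1 and CA3 arrays of 1 restricted poor performer (animal R12) as dChip outliers. Most potassium channel differences that rest on them are given with and without this animal.

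Detection split the genes into 3 tiers. Probe sets of 25 genes were present on all 45 arrays, those of 28 on some and those of 21 on none. All 3 Kv4 genes (Kcnd1, Kcnd2 and Kcnd3, which carry the somatodendritic A-type current) were present on every array. By contrast, the Kv7 genes Kcnq1 and Kcnq5 were present on none, while Kcnq3, a subunit of the M-current channel, was present on 38 arrays. Other genes present on 0 arrays were Kcna3, Kcna6, Kcnb2, Kcne1, Kcne3, Kcng3, Kcnh4, Kcnh5, Kcnh7, Kcnh8, Kcnip1, Kcnj1, Kcnj15, Kcnk13, Kcnk3, Kcnmb1 and Kcnn1. These calls are of each gene's brightest probe set alone: a dimmer probe set of Kcnk3 was present on 38 of the 45 arrays. An absent call says only that the probe set was not above its own background on these arrays. Probe sets whose mean over a table lay under its 40th percentile were set aside, which left 39 of the 74 genes for tests in the age table (27 ad libitum arrays) and 41 in the diet table (36 arrays of old animals).

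Of the brightest probe set in each family, the mean series value over the 3 animals of a class and region spanned the widest range, as the highest over the lowest mean, for Kcnh3 (3.43-fold) and Kcna1 (3.09-fold). Kcnh3, which encodes the forebrain ELK channel Kv12.2, had its highest mean in CRO_PP CA1 (291.4 ± 51.8, SD, n = 3) and its lowest in ALMA CA3 (85.0 ± 25.3). Kcna1, the axonal low-threshold channel Kv1.1, averaged 697.3 ± 87.7 in CRO_PP CA3 at the top and 225.5 ± 41.9 in ALO_PP CA1 at the bottom (SD, n = 3 each). For both genes these extremes differ in region and in class together, so the range does not separate region from class. The CRO_PP means of CA1 and CA3 in this paragraph include the marked arrays of animal R12 and were not worked out without them. The ratio was smaller for Kcnd2 (Kv4.2), 1.5-fold, at 797.0 ± 133.5 in ALO_GP CA1 and 533.1 ± 21.1 in CRO_PP CA3. Kcnma1, the pore of the large-conductance BK channel, spanned 1.57-fold, between 718.2 ± 155.2 in ALMA CA1 and 456.2 ± 46.4 in CRO_PP CA1. Levels of different probe sets are not comparable, so no order among these genes is given.

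**Figure D1:**
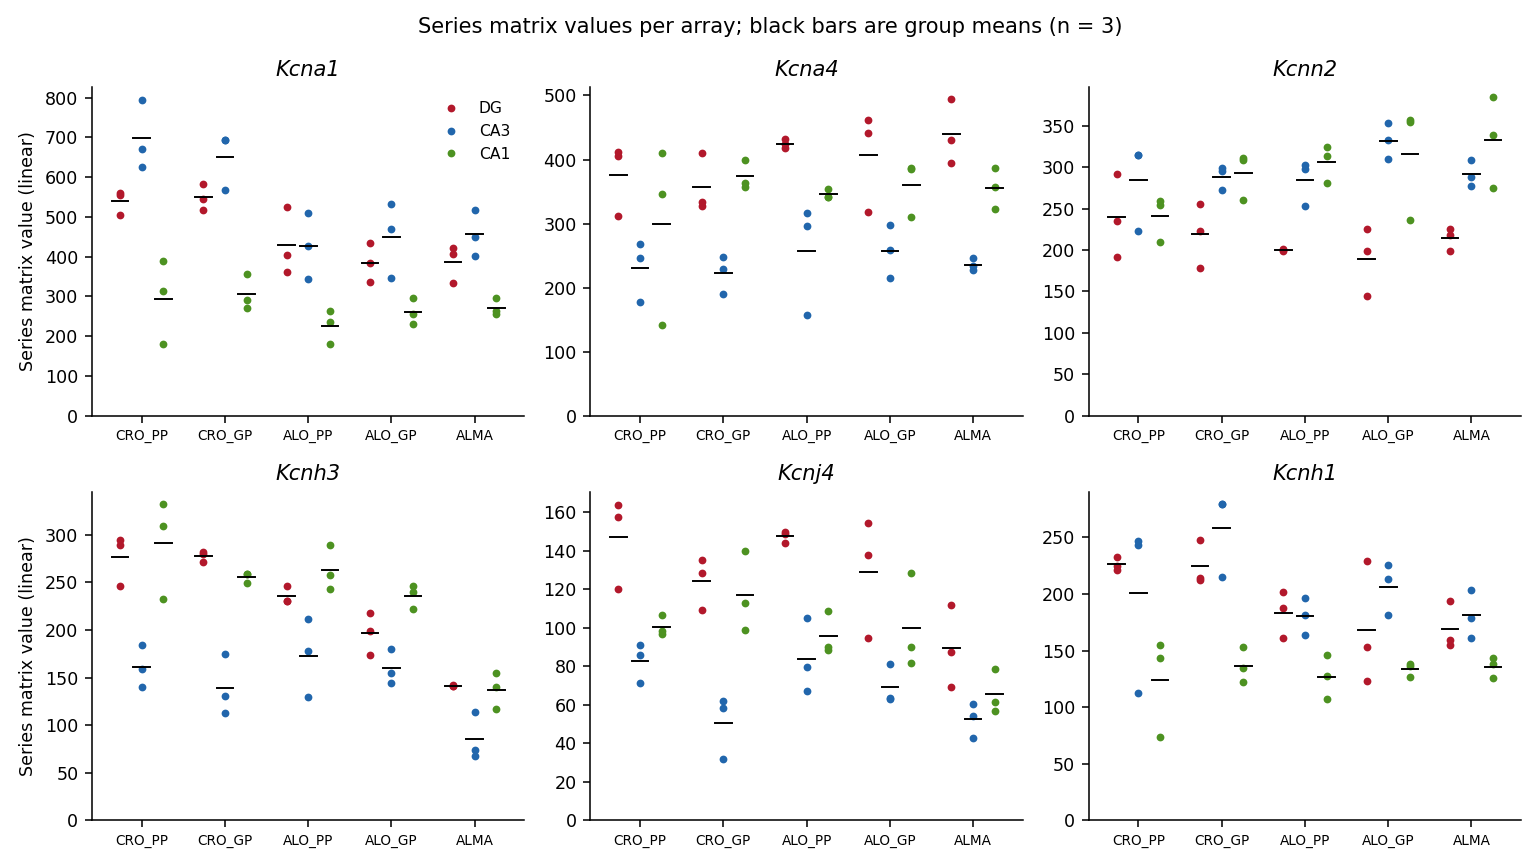
Series values of Kcna1, Kcna4, Kcnn2, Kcnh3, Kcnj4 and Kcnh1 on each array by class and region, with class means. Kcna1 was highest in CA3 of restricted animals, and Kcnh3 was lowest in CA3 of middle-aged animals.

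In CA3 relative to CA1, the voltage-gated genes Kcna1 and Kcnh1 were higher, and Kcnh3 and Kcnj4 were lower, in restricted and in ad libitum animals. Differences are of log2(dChip signal + 16), tested by limma with the animal as a block and Benjamini-Hochberg adjustment over all 18625 probe sets kept, at a threshold of 0.05. Restricted animals had 8 of 41 tested genes higher (19.5%, against 8.38% of all probe sets) and 7 lower (17.1%, against 18.4%); 11 of the 15 were also called in the same direction in the series values (26.8%, against 16.3%). Ad libitum animals had 6 of 39 higher (15.4%, against 8.79%) and 9 lower (23.1%, against 13.5%), with 12 called in both signals (30.8%, against 12%). The median difference was -0.02 in restricted animals and -0.04 in ad libitum animals, against -0.06 and -0.02 over all probe sets. The diet groups share no animal: 10 genes were called in both, all in the same direction, which is 66.7% of each group's 15 calls. The same share over all probe sets was not worked out, so this is read as no result about the genes as a group. Without animal R12, 20 genes were called in restricted animals, among them all 15. Within the 3 restricted animals whose CA3 and CA1 arrays both lie in the low DapX set, limma called 0 (17 at an unadjusted p below 0.05), against 0.0107% of all probe sets; the 15 kept their direction, with Kcna1 at 1.16, Kcnh1 at 0.83, Kcnh3 at -0.81 and Kcnj4 at -0.93.

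Kcna1 signals in restricted animals were 2524, 2779 and 3010 (lowest, median, highest, n = 6) in CA3, against 734, 1375 and 1683 in CA1, a difference of 1.06 ± 0.14 (SE; limma, adjusted p = 0.000286), which was 0.89 without animal R12 (limma, adjusted p = 2.39e-05). In ad libitum animals they were 1508, 1792 and 2095 (n = 9) in CA3, against 731, 1083 and 1261 in CA1, a difference of 0.71 ± 0.09 (limma, adjusted p = 9.07e-05). In neither diet did the regions overlap, and CA3 was higher in 6 of 6 and 9 of 9 animals. The series values gave 1.16 and 0.77, and Kcna1 in restricted animals was the only gene past a 2-fold difference in both signals among the region comparisons. Kcnh1, the EAG channel Kv10.1, differed by 0.84 ± 0.14 in restricted animals (0.78 without R12) and by 0.46 ± 0.10 in ad libitum animals, where CA3 signals of 588 to 847 lay above CA1 signals of 436 to 549. It was higher in CA3 in 6 of 6 and 9 of 9 animals.

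Kcnh3 signals in restricted animals were 666, 932 and 1222 in CA3, against 1608, 1757 and 2046 in CA1, a difference of -0.96 ± 0.12 (limma, adjusted p = 0.000235), or -1.07 without R12. Ad libitum animals had 511, 824 and 1381 in CA3, against 915, 1442 and 1658 in CA1, a difference of -0.62 ± 0.08 (limma, adjusted p = 9.57e-05). Ad libitum ranges, which pool both ages, overlapped, yet CA3 was higher in 0 of 9 animals. Kcnj4, the inward rectifier Kir2.3, followed the same pattern: 277 to 520 in CA3, against 682 to 873 in CA1, in restricted animals (-0.97 ± 0.12, and -0.99 without R12), and 228 to 647 in CA3, against 361 to 780 in CA1, in ad libitum animals (-0.41 ± 0.10).

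Among the other genes, Kcnmb4, the neuronal beta subunit of BK channels, was higher in CA3 by 0.31 and 0.27 in restricted (0.32 without R12) and ad libitum animals, as was Kcng2, a silent subunit that modifies Kv2 channels (0.58, or 0.55 without R12, and 0.41); Kcng2 was no longer called in restricted animals without R1 (limma, adjusted p = 0.0694) or R5 (0.0632) of CRO_GP. Kcna4 (Kv1.4, an inactivating A-type channel) was called lower in CA3 in ad libitum animals (-0.37 ± 0.08) and, at -0.30 in restricted animals, was called there only without R12 (-0.44; limma, adjusted p = 0.000547). The auxiliary Kcnab1, the Kvbeta1 subunit, was called lower in ad libitum animals (-0.26 ± 0.07), a call lost without R4 (limma, adjusted p = 0.054) or R6 (0.0637) of ALMA or R11 of ALO_PP (0.0643). A second Kcnab1 probe set gave -0.09 there and was not called (limma, adjusted p = 0.495). Kcnip2, a KChIP subunit of Kv4 channels, was called higher in CA3 in restricted animals (0.45 ± 0.08, and 0.40 without R12), where its other tested probe set gave 0.68; in ad libitum animals it was called in the series values (0.36) and not in dChip signals (0.21). The difference between diets in these region contrasts was not tested gene by gene beyond the diet-by-region test given further on. Kcnt1 (Slack, the sodium-activated channel) was called lower in restricted CA3 at -0.82 ± 0.23, with the R12 CA1 array at 895 and the other 5 CA1 arrays at 259 to 415; the difference was -0.66 without R12, and 2 further probe sets of the gene gave -0.02 and -0.21, neither called. Its call was lost without R1 (limma, adjusted p = 0.0517), R3 (0.0565) or R5 (0.0639) of CRO_GP.

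Relative to CA1, DG had higher signals of the leak channels Kcnk1 and Kcnk4 and of Kcna1 and Kcnd3, and lower signals of Kcnn2, the SK2 channel of the medium after-hyperpolarisation, under both diets. Of the 6 leak channel genes tested, 3 were called higher under each diet and 0 lower. Only Kcnk1 and Kcnk4 were called under both, with Kcnk2 in ad libitum and Kcnk12 in restricted animals alone. The restricted Kcnk12 call (0.44) was lost without R1, R3 or R5 of CRO_GP or R6 or R7 of CRO_PP (limma, adjusted p of 0.064 to 0.091). Restricted animals had 14 of 41 genes higher in DG (34.1%, against 12.2% of all probe sets) and 2 lower (4.88%, against 15.6%), with 12 called in both signals (29.3%, against 15.7%). Ad libitum animals had 10 of 39 higher (25.6%, against 8.13%) and 5 lower (12.8%, against 8.4%), with 11 in both signals (28.2%, against 10.9%). The median difference was 0.16 in restricted animals, against -0.0019 over all probe sets, and -0.00093 in ad libitum animals, against -0.0021. The 9 genes called under both diets had the same direction. They are 56.2% of the 16 restricted calls and 60% of the 15 ad libitum calls, shares that were not worked out over all probe sets. Without R12, 19 genes were called in restricted animals, 14 of them among the 16; Kcnj6 and Kcnv1 were lost. Within the 3 restricted animals whose DG and CA1 arrays both lie in the low DapX set, limma called 0 (8 at an unadjusted p below 0.05), as it called 0% of all probe sets; the 16 kept their direction, with Kcnk1 at 1.41, Kcna1 at 0.89, Kcnk4 at 0.61 and Kcnn2 at -0.30.

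Kcnn2 signals in restricted animals were 1398, 1611 and 1734 in DG, against 1916, 2155 and 2409 in CA1, a difference of -0.43 ± 0.07 (limma, adjusted p = 0.002), the same without R12 (-0.43). Ad libitum animals had 1306, 1538 and 1673 in DG, against 1827, 2242 and 2444 in CA1, a difference of -0.53 ± 0.05 (limma, adjusted p = 1.3e-06). DG lay wholly below CA1 under both diets, although the series values called the gene only in ad libitum animals (-0.62, against -0.21 in restricted animals with overlapping regions). Against CA3 the gene was again lower in DG, by -0.32 ± 0.07 in restricted animals (1398 to 1734, against 1828 to 2155; -0.31 without R12) and by -0.46 ± 0.05 in ad libitum animals (1306 to 1673, against 1809 to 2346). No animal had a higher dChip signal in DG than in CA1 or CA3.

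The leak channels Kcnk1 (TWIK-1) and Kcnk4 (TRAAK, a mechanosensitive channel) were higher in DG than in CA1 under both diets. Kcnk1 signals in restricted animals were 294, 368 and 387 in DG, against 43.1, 173 and 235 in CA1 (1.26 ± 0.25, and 0.96 without R12), and in ad libitum animals 196, 262 and 362 in DG, against 90.7, 155 and 225 in CA1 (0.71 ± 0.12). The series values gave smaller differences, 0.59 and 0.32. Kcnk4 differed by 0.60 ± 0.09 in restricted animals (0.64 without R12), where DG (539 to 653) lay above CA1 (343 to 456), and by 0.52 ± 0.09 in ad libitum animals. Kcnk2 (TREK-1) was called in ad libitum animals only, at 0.46 ± 0.10, with 1 DG array (ALO_GP replicate 1) at 2391 and the other 8 at 1054 to 1438; the call held without each animal in turn.

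Kcna1 differed between DG and CA1 by 0.78 ± 0.14 in restricted animals (0.62 without R12) and by 0.62 ± 0.09 in ad libitum animals, again without overlap. Of the 5 CA3 markers tested, 5 were higher in DG than in CA1 in restricted animals, where the summed series value of the list (6 genes on the array) was 1995 to 2556 in DG and 1080 to 1420 in CA1. In ad libitum animals 3 were higher and 1 (Bok, -0.27) was lower, and the sums overlapped (1031 to 2134 in DG and 1229 to 2324 in CA1). Their part in the Kcna1 difference was not tested. Kcnd3, the A-type channel Kv4.3, was higher in DG by 0.43 ± 0.12 in restricted animals (0.57 without R12) and by 0.64 ± 0.08 in ad libitum animals, where DG signals of 868, 1102 and 1229 stood above CA1 signals of 583, 641 and 835. The series values called it only in ad libitum animals, and the restricted call was lost in 5 of 6 fits that left out 1 animal (limma, adjusted p of 0.0554 to 0.0936), all but that without R12. Kcnab1 was lower in DG in ad libitum animals, with 4398, 5525 and 5841 in DG, against 5998, 7066 and 7879 in CA1 (-0.39 ± 0.07), and its second probe set was called too (-0.28). Interneuron markers were lower in DG than in CA1 as well, 6 of 7 in ad libitum animals (summed series values 2633 to 3740, against 3626 to 4896) and 3 of 7 in restricted animals (2676 to 3396, against 3608 to 4318). In restricted DG, 5 of 7 oligodendrocyte markers (9052 to 11600, against 11810 to 28820) and 4 of 7 microglia markers (1281 to 1561, against 1222 to 2152) were lower. Their part in the differences between DG and CA1 was not tested.

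Relative to CA3, DG had higher signals of Kcna4, Kcna5, Kcnj4 and Kcnh3, and lower signals of Kcnn2, under both diets. Restricted animals had 9 of 41 genes higher in DG (22%, against 10.3%) and 1 lower (2.44%, against 6.63%), with 7 in both signals (17.1%, against 9.87%). Ad libitum animals had 10 of 39 higher (25.6%, against 20%) and 7 lower (17.9%, against 16%), so the shares in each direction were near those of all probe sets, and 15 were called in both signals (38.5%, against 23.7%). The median difference was 0.17 in restricted animals, against 0.05 over all probe sets, and -0.09 in ad libitum animals, against 0.01. Oligodendrocyte markers were lower in restricted DG than in CA3 in 5 of 7 cases (summed series values 9052 to 11600, against 12210 to 18580); their part was not tested. All 10 restricted calls were among the 17 ad libitum calls, in the same direction, and are 58.8% of those. How many of all probe sets were called under both diets was not worked out. Without R12, 16 genes were called in restricted animals, including all 10. Within the 5 restricted animals whose DG and CA3 arrays both lie in the low DapX set, limma called 7 of the 41 genes, against 6.39% of all probe sets. All 7 are among the 10, which were themselves called in a fit that included these animals. Of the others among the 10, Kcnd3 gave 0.43 (limma, adjusted p = 0.0608) and Kcnn2 -0.26 (0.0847).

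Kcna4 signals in restricted animals were 1245, 1407 and 1791 in DG, against 652, 859 and 990 in CA3 (0.76 ± 0.15; limma, adjusted p = 0.00394), and 0.69 without R12. In ad libitum animals they were 1181, 1392 and 1602 in DG, against 693, 869 and 1022 in CA3 (0.67 ± 0.08; limma, adjusted p = 2.51e-06). Every DG array exceeded every CA3 array in both diets and both signals. Kcnj4 differed by 1.13 ± 0.12 in restricted animals (658 to 1052 in DG, against 277 to 520 in CA3; 1.17 without R12) and by 0.78 ± 0.10 in ad libitum animals (517 to 905, against 228 to 647). Kcnh3 was higher in DG by 0.85 ± 0.12 and 0.54 ± 0.08 in restricted (0.91 without R12) and ad libitum animals, and in 6 of 6 and 9 of 9 animals. These genes were thus lower in CA3 than in either other region, apart from Kcna4 against CA1 in restricted animals, which was not called.

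Kcna5, the delayed rectifier Kv1.5, had the largest dChip difference of this contrast: 186 to 249 in DG, against 55.5 to 109 in CA3, in restricted animals (1.30 ± 0.14, and 1.41 without R12), and 151 to 311 in DG, against 52.01 to 195 in CA3, in ad libitum animals (1.16 ± 0.14). The series values gave 0.81 and 0.51. In ad libitum animals 1 CA3 array (ALO_GP replicate 1) stood at 195 and the other 8 at 52.01 to 99.1. Kcnk12 (THIK-2) and Kcnk4 were higher in DG under both diets as well, Kcnk4 by 0.58 ± 0.09 (0.67 without R12) and 0.39 ± 0.09. The restricted call of Kcnk12 (0.59, and 0.62 without R12) was lost without R1 (limma, adjusted p = 0.0784) or R5 (0.0566) of CRO_GP or R6 of CRO_PP (0.0546).

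The genes lower in DG than in CA3 in ad libitum animals were Kcnn2, Kcns3 and Kcnv1 (silent Kv subunits), Kcng2, Kcnc2 (Kv3.2, a channel of fast-spiking interneurons), Kcnh2 (ERG1) and Kcnmb4. Kcnc2 had 2563, 3226 and 3521 in DG, against 3369, 3771 and 4038 in CA3 (-0.27 ± 0.05; limma, adjusted p = 0.000663), and was lower in DG in every animal. The Kcnmb4 call was lost in 7 of 9 fits that left out 1 animal (limma, adjusted p of 0.0623 to 0.123). Interneuron markers were lower in DG as well: 6 of 7 tested were called, with summed series values of 2633 to 3740 in DG, against 3532 to 4343 in CA3. Gad2 was present on 40 of 45 arrays and the other 6 on all 45. Their part in the lower potassium channel signals was not tested. In restricted animals 4 of the 7 interneuron markers and only Kcnn2 of these genes were called lower. Kcns3 is taken up again under diet, because its dChip signal in restricted animals does not match the series values.

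**Figure D2:**
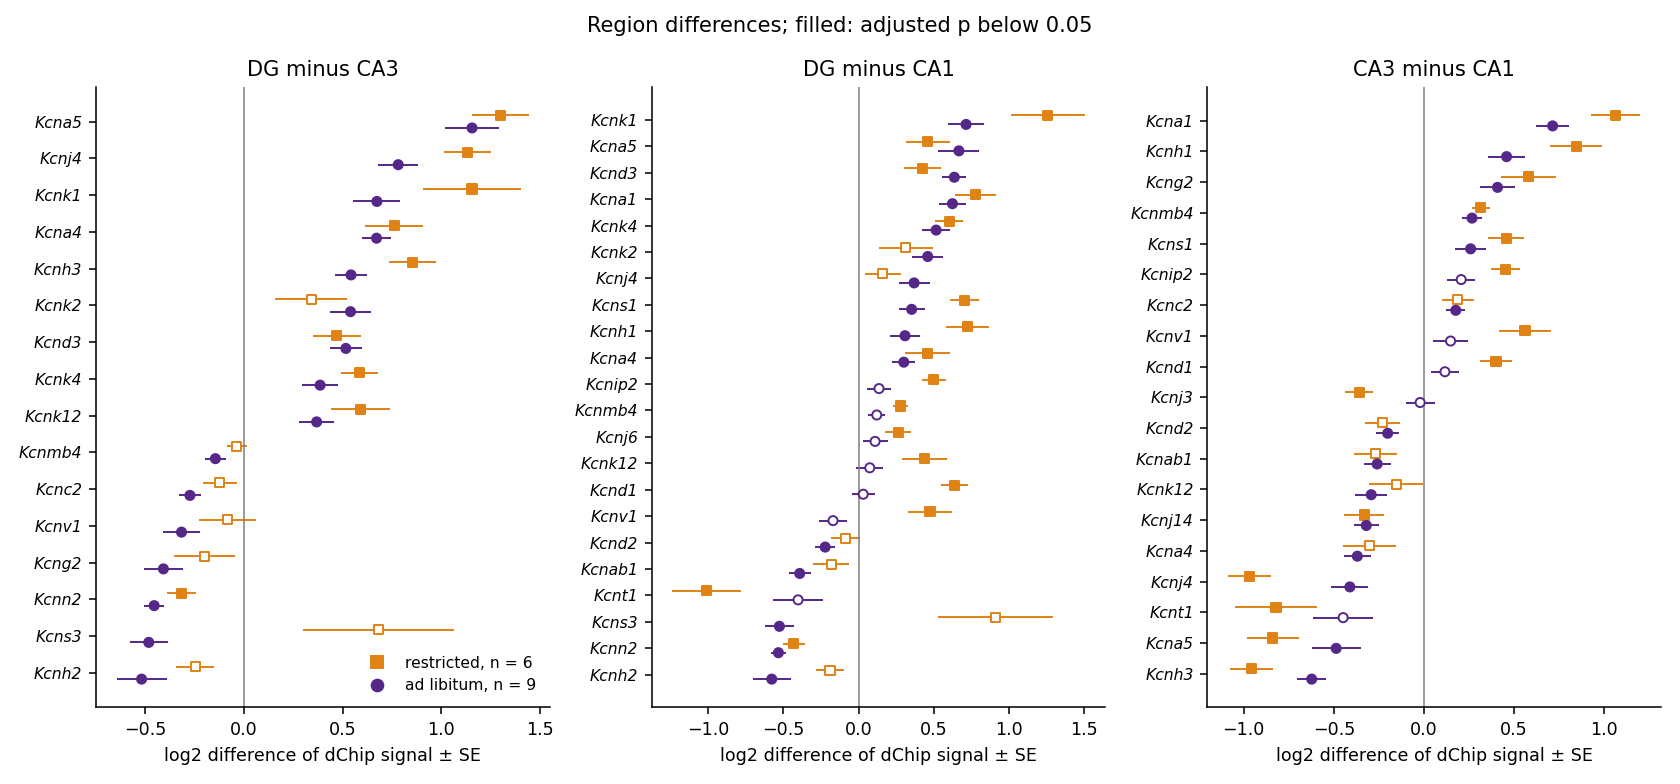
Region differences of potassium channel genes (log2 scale, ± SE) in restricted animals and in ad libitum animals, for genes called in at least 1 of them; filled points have an adjusted p below 0.05. Genes called under both diets lie on the same side of 0.

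Start-site regions are shown for Kcna4, Kcnd3 and Kcnk4, since each was called higher in DG than in CA3 under both diets in dChip signals. For Kcnd3 the restricted call (0.47, and 0.52 without R12) was absent from the series values and lost without R1 (limma, adjusted p = 0.0763) or R5 (0.0705) of CRO_GP or R6 (0.0509) or R7 (0.0854) of CRO_PP. They are the 250 bases before to 50 bases after the start in RefSeq on GRCr8, in the direction of transcription, with matches to GGGCGG on either strand (CCGCCC on the other) in capitals. Kcna4 lies at chr3:114215086-114215385 on the plus strand, Kcnd3 at chr2:195626066-195626365 on the plus strand and Kcnk4 at chr1:213555812-213556111 on the minus strand.
Kcna4: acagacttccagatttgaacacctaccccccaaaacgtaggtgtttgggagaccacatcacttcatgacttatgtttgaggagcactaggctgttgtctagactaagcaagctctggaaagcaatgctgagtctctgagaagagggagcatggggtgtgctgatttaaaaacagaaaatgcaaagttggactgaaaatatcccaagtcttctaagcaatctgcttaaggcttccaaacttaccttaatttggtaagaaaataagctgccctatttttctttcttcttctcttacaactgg
Kcnd3: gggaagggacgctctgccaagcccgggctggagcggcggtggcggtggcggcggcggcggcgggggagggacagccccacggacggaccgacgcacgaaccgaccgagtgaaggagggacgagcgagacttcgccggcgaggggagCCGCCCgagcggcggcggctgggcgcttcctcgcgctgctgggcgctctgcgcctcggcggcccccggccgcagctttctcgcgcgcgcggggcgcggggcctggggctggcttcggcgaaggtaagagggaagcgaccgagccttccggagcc
Kcnk4: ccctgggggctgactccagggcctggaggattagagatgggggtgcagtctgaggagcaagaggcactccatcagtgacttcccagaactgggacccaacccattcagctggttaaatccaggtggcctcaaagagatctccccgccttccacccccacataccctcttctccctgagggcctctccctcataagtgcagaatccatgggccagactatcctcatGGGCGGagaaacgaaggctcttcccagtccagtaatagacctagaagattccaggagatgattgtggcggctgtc
The Kcna4 region held no GGGCGG and was 41.7% G or C, against 77.7% for Kcnd3 and 56.7% for Kcnk4, which held 1 match each. RefSeq start regions were at hand for 48 of the 74 genes (54 regions); 51.9% of them held GGGCGG on either strand, against 33.1% of all 33469 regions. TATAAA, or its reverse complement, was in 3.7% of them, against 14.2%, and the cyclic AMP element TGACGTCA in 0%, against 1.83%. The motifs do not overlap one another in letters, and the median G and C content was 64%, against 51.7% over all genes with a region.

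Age was compared between old and middle-aged ad libitum animals within each region (6 against 3 arrays), and Kcnh3 was higher in old animals in all 3 regions. In CA1, 8 of 39 genes were higher in old animals (20.5%, against 20.5% of all probe sets) and 1 lower (2.56%, against 7.21%), with 6 called in both signals (15.4%, against 11.4%). In CA3, 7 were higher (17.9%, against 15.2%) and 1 lower (2.56%, against 4.86%), with 3 in both signals (7.69%, against 8.53%). In DG, 3 were higher (7.69%, against 8.2%) and 1 lower (2.56%, against 2.1%), with 1 in both signals (2.56%, against 3.71%). The median differences were 0.11, 0.14 and 0.05 in CA1, CA3 and DG, against 0.07, 0.05 and 0.04 over all probe sets. These shares are close to those of all probe sets and are read as no result about the genes as a group. The DapX set changes with age in every region, and age and set cannot be told apart. Age differences between regions were called for 0 of 39 genes (0.0215% of all probe sets; smallest adjusted p by limma 0.999), and for 1 at an unadjusted p below 0.05.

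Kcnh3 signals in CA1 were 1397, 1457 and 1658 (lowest, median, highest) in old animals, against 915, 998 and 1000 in the 3 middle-aged animals, a difference of 0.60 ± 0.07 (limma, adjusted p = 0.000183). In CA3 they were 765, 990 and 1381 in old animals, against 511, 573 and 727 in middle-aged animals (0.70 ± 0.17; limma, adjusted p = 0.0202). In DG they were 1127, 1403 and 1485 in old animals, against 972, 1006 and 1007 in middle-aged animals (0.43 ± 0.09; limma, adjusted p = 0.0208). Every old array exceeded every middle-aged array in each region and in both signals, and the series differences were 0.80, 0.86 and 0.55. The CA1 call held without each array in turn. The CA3 call was lost without ALMA replicate 2 (limma, adjusted p = 0.0891) or 3 (0.0719), and the DG call without ALMA replicate 1 (0.0983), 2 (0.0726) or 3 (0.0666).

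Kcnj4 moved in the same direction, by 0.55 ± 0.16 (CA1), 0.64 ± 0.17 (CA3) and 0.54 ± 0.11 (DG), with DG signals of 616, 802 and 905 in old animals, against 517, 535 and 551 in middle-aged animals. The series values called it in CA1 alone, at 0.48, and gave 0.43 in CA3 and 0.55 in DG. Each of its 3 calls was lost when single ALMA arrays were left out: replicate 2 in all 3 regions (limma, adjusted p = 0.105, 0.108 and 0.0702 in CA1, CA3 and DG), replicate 3 in CA1 (0.11) and CA3 (0.0585) and replicate 1 in DG (0.0728). In CA3 the CA1 marker Wfs1 was higher in old animals too (1.01; limma, adjusted p = 0.0248), 1 of the 3 CA1 markers tested, and the summed series value of the list was 1431 to 3789 in old CA3, against 699 to 1620 in middle-aged CA3. Both genes are higher in CA1 than in CA3, and the part of the markers in their CA3 difference was not tested. In CA1 itself no CA1 marker was called with age.

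Kcnj11 encodes Kir6.2, the pore of the ATP-sensitive channel. Its dChip signals in DG were 1598, 1821 and 1851 in old animals, against 1231, 1288 and 1478 in middle-aged animals (0.42 ± 0.08; limma, adjusted p = 0.00973), and the differences in CA1 and CA3 were 0.30 and 0.29. It was called in each region in dChip signals and in none in the series values, which gave 0.33, 0.34 and 0.34 in CA1, CA3 and DG. A second probe set of the gene gave 0.52 in CA1, 0.40 in CA3 and 0.41 in DG and was called in CA1 and DG. The DG call of the first was lost without ALMA replicate 1 (limma, adjusted p = 0.0567) or 2 (0.0526), its CA1 call without ALMA replicate 2 (0.0688) and its CA3 call in 5 of 9 fits that left out 1 array (0.0544 to 0.128).

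In CA1, Kcnj16 (Kir5.1, which pairs with the glial Kir4.1) had 150, 178 and 218 in old animals, against 83.3, 92.0 and 132 in middle-aged animals (limma, adjusted p = 0.00285). It was present on 6 of 6 old arrays and 0 of 3 middle-aged arrays, where its signals were not above background, so no fold is given. Astrocyte markers were higher there as well, 4 of 7 called, with summed series values of 14950 to 16280 in old CA1, against 13880 to 14850 in middle-aged CA1, and 5 of 7 microglia markers (1784 to 4659, against 940 to 1210). Microglia markers were higher in old animals in 4 of 7 cases in CA3 (1517 to 4341, against 1033 to 1263) and in DG (1519 to 2831, against 883 to 1206) as well. The part of either list was not tested. Kcng2 differed by 0.62 ± 0.13 and Kcnk12 by 0.60 ± 0.07, both without overlap and in both signals, with Kcnk12 at 205 to 247 in old animals, against 137 to 147 in middle-aged animals. Kcnc2 was the gene called lower in old CA1 (2994 to 3410, against 3510 to 3738; -0.18 ± 0.06), a call lost when any of 8 of the 9 arrays was left out, ALO_GP replicate 3 being the exception (limma, adjusted p of 0.0546 to 0.1175). Kcnk6 passed the dChip test as higher but was present on 0 of the 9 arrays, and its second probe set was called in the opposite direction, so no fold is given.

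Further dChip calls with age rested on smaller differences. In CA3, Kcnip2 was higher in old animals (3219, 3388 and 3909, against 2481, 2916 and 2939; 0.32 ± 0.09) and Kcns3 lower (1213, 1378 and 1435, against 1516, 1540 and 1730; -0.23 ± 0.07), both also called in the series values. The Kcnip2 call was lost without ALMA replicate 1 (limma, adjusted p = 0.103) or 3 (0.0508), and the Kcns3 call without any of 7 of the 9 arrays (up to 0.171). Kcnj3, the GIRK1 subunit of G-protein-gated channels, was called lower in old DG in dChip signals (-0.54 ± 0.12), but its series values were 49.8 to 79.7 in old animals, against 46.2 to 75.6 in middle-aged animals (0.05). That direction depends on the signal used, and the dChip call was lost without ALMA replicate 1 (limma, adjusted p = 0.116) or 2 (0.102) or ALO_GP replicate 3 (0.0503).

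**Figure D3:**
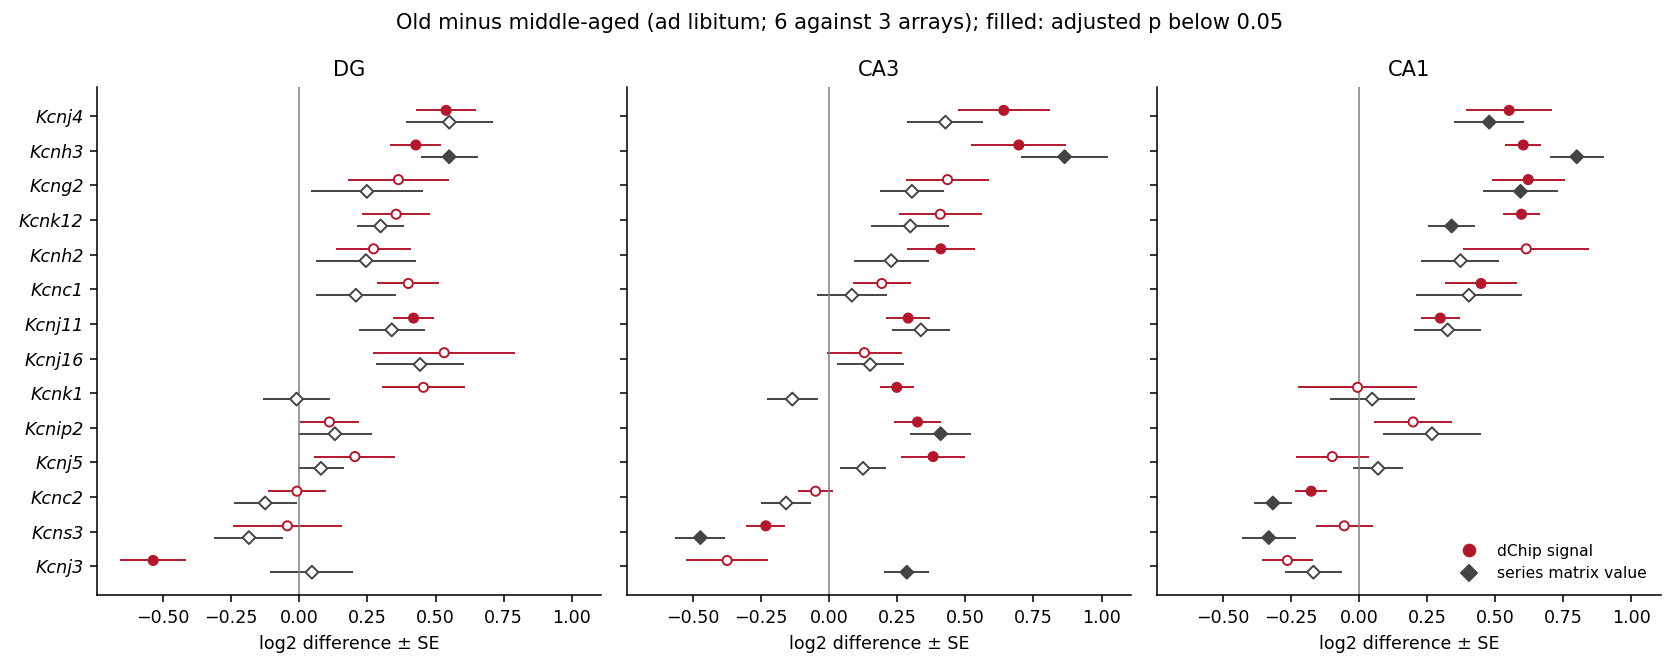
Old minus middle-aged differences (log2 scale, ± SE) of the potassium channel genes in the dChip signals and in the series values, for DG, CA3 and CA1; genes present on no array of a group are not drawn in that panel. Kcnh3 lies to the right of 0 in every panel and both signals, whereas Kcnj3 in DG is below 0 only in the dChip signals.

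Diet was compared between restricted and ad libitum old animals (6 against 6 arrays per region). In CA3, Kcna1 was higher in restricted animals and Kcnab1, whose product binds Kv1 channels and speeds their inactivation, was lower. Of 41 genes, 2 were higher (4.88%, against 2.94%) and 1 lower (2.44%, against 5.44%), with 2 in both signals (4.88%, against 2.91%). In CA1, 0 were called (8 at an unadjusted p below 0.05; 0 in the series values; without the R12 array only Kcnk6, which was present on no CA1 array), against 0.0107% of all probe sets in each direction. In DG, 7 were higher (17.1%, against 12.4%) and 2 lower (4.88%, against 19.4%), with 3 in both signals (7.32%, against 12.3%). The series values called 10 of 42 genes higher and 0 lower there, while they called 3840 of all probe sets in either direction. Their shares by direction over all probe sets were not worked out, so the 10 are read as no result about the genes as a group. The median differences were -0.05, -0.06 and 0.11 in CA1, CA3 and DG, against -0.03, -0.05 and -0.05 over all probe sets. The test of diet by region called 0 genes (0.0268% of all probe sets; smallest limma adjusted p 0.0971 for Kcnd1; 6 at an unadjusted p below 0.05), and without R12 it called Kcnh3 (adjusted p = 0.043).

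Kcna1 signals in CA3 were 2686, 2524 and 2873 in CRO_PP and 3004, 2556 and 3010 in CRO_GP, against 1923, 1639 and 2151 in ALO_PP and 1969, 1631 and 2247 in ALO_GP. Every restricted array exceeded every ad libitum array, in the series values too (567 to 795, against 343 to 533). The difference was 0.53 ± 0.09 (limma, adjusted p = 0.00894), 0.52 without the marked R12 array, and the call held without each of the 12 arrays in turn. The authors' deposited table lists the gene for diet in CA3 with a fold of 1.445. Only 1 restricted CA3 array shares the DapX set of the ad libitum arrays, with Kcna1 at 3004; within that set the difference was not called (limma, adjusted p = 0.222). The CA3 markers were not called with diet in CA3 (0 of 5; summed series values 2907 to 3960 in restricted, against 1723 to 3368 in ad libitum animals), nor were the CA1 markers (0 of 3; 1006 to 2003, against 1431 to 3789), while Calb1, 1 of 2 dentate markers tested, was lower (-0.65; summed list 324 to 650, against 540 to 1165). Their part in the Kcna1 difference was not tested.

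Kcnab1 in CA3 had 4745, 4935 and 5587 in restricted animals, against 5022, 6621 and 7213 in ad libitum animals (-0.36 ± 0.09, and -0.35 without R12; limma, adjusted p = 0.0255). The ranges overlapped through 1 ad libitum array, ALO_PP replicate 4 at 5022. The call was lost in 7 of 12 fits that left out 1 array (ALO_GP replicates 1 to 3, ALO_PP replicates 2 and 3, CRO_GP replicate 3, CRO_PP replicate 2; adjusted p of 0.0524 to 0.0627). A second Kcnab1 probe set gave -0.14 and was not called (limma, adjusted p = 0.589). Kcnd3 was called higher in dChip signals only (0.30 ± 0.08), and lost the call in 10 of the 12 fits. Without the R12 array 10 genes were called in CA3, these 3 and Kcnd2, Kcng2, Kcnh1, Kcnip2, Kcnj11, Kcnn2 and Kcns3; Kcnh1 then differed by 0.40 (limma, adjusted p = 0.00779), against 0.27 with it (0.264).

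In DG, where diet and DapX set cannot be told apart, Kcnd1 (Kv4.1) had 211, 245 and 267 in restricted animals, against 123, 160 and 196 in ad libitum animals, without overlap (0.52 ± 0.10; limma, adjusted p = 0.00349). Kcnip2 had 3833, 4182 and 4409 in restricted animals, against 2687, 3383 and 3863 in ad libitum animals (0.33 ± 0.08), and its second probe set gave 0.39 without being called. Kcna1 was higher there too, with 2095, 2255 and 2426 in restricted animals, against 1657, 1847 and 2261 in ad libitum animals (0.27 ± 0.07), where 1 ad libitum array, ALO_PP replicate 2, reached into the restricted range. A Kv4 channel, a Kv4 subunit and a Kv1 channel were thus called in both signals. They make up 7.32% of the genes tested, against 12.3% of all probe sets. This is read as no result about the genes as a group. Of the CA3 markers, 2 of 5 (Bok and Cpne4) were also higher in restricted DG, with summed series values of 1995 to 2556 in restricted, against 1031 to 2134 in ad libitum animals; their part was not tested.

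Kcns3 (Kv9.3) shows how far a dChip call can depend on the table. In DG its signals in the table of all old arrays were 1735, 2572 and 7128 in restricted animals, against 553, 740 and 857 in ad libitum animals (1.99 ± 0.28; limma, adjusted p = 0.000655). In the series values the same arrays had 159, 195 and 230, against 147, 212 and 221 (-0.04), and in the dChip table of DG arrays alone the difference was -0.19. Across the table of all old arrays, 13 of the 14 arrays in the low DapX set exceeded every array of the middle set, and 0 of 14 did so in the series values. No diet direction is therefore given for this gene. Kcns2, Kcnj3, Kcnj14, Kcnj16 and Kcnj11 were called in DG in dChip signals alone, of which Kcnj16 (-0.64) and Kcnj11 (-0.29) were lower. The calls of Kcns2, Kcnj14 and Kcnj16 were lost in 8, 10 and 7 of the 12 fits that left out 1 array (limma, adjusted p up to 0.0797, 0.0864 and 0.0782).

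**Figure D4:**
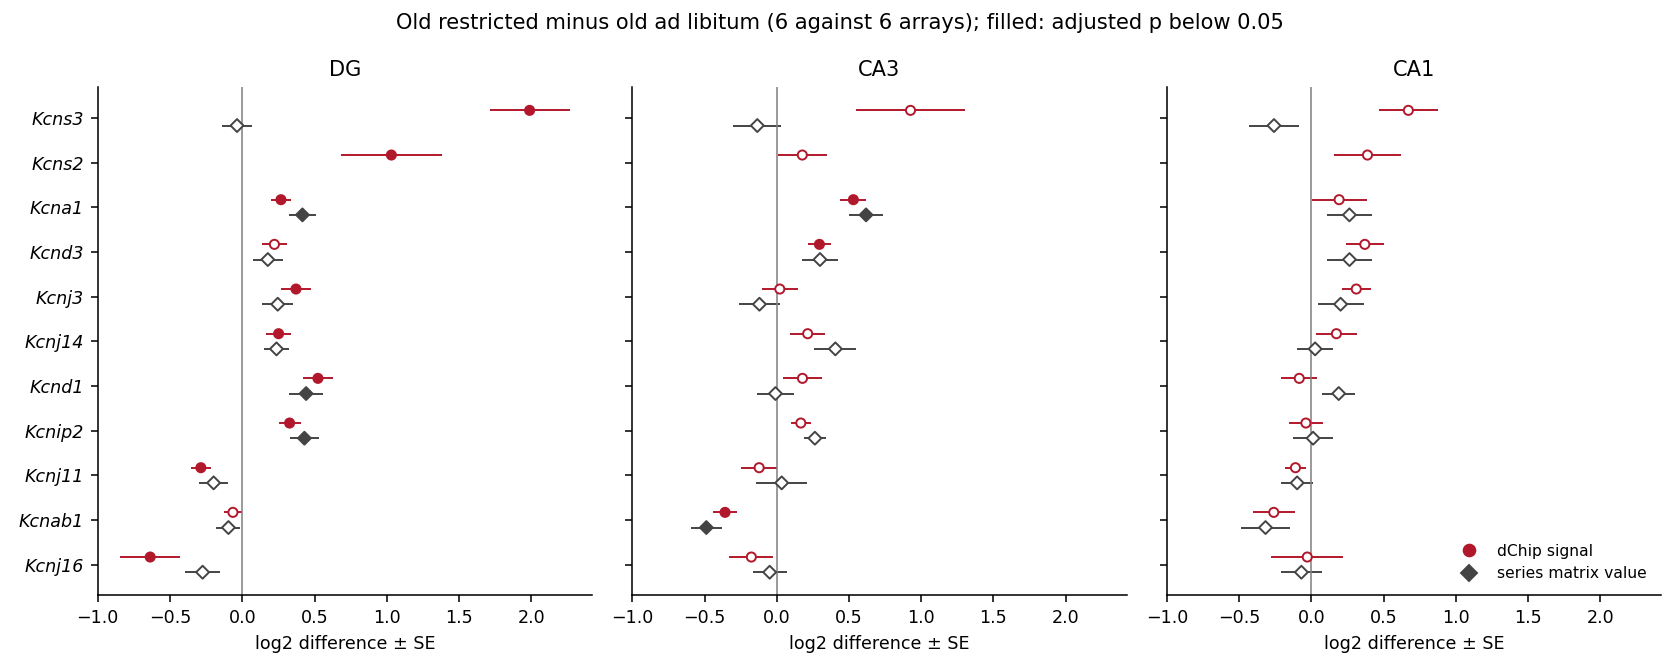
Restricted minus ad libitum differences (log2 scale, ± SE) of the potassium channel genes in old animals, in dChip signals and in series values, for DG, CA3 and CA1. Kcna1 lies to the right of 0 in DG and CA3 in both signals, and Kcns3 is far from 0 in DG in dChip signals alone.

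Poor and good performers (6 against 6 old arrays per region, with diet in the fit) did not differ in any potassium channel gene at the threshold: limma called 0 of 41 in each region, as it called 0% of all probe sets in CA1, 0% in CA3 and 0% in DG, and the series values called 0 as well, as did dChip signals without the R12 arrays. At an unadjusted p below 0.05 there were 5 genes in CA1, 1 in CA3 and 3 in DG. The smallest adjusted p in CA1 was 0.256, shared by Kcns3 (0.53 ± 0.15 in dChip signals, 0.58 without R12, and -0.19 in series values) and Kcnc2; among restricted CA1 arrays performance and DapX set coincide. Kcnc2 had 2790, 3172 and 3405 in poor performers, against 3340, 3481 and 3617 in good performers (-0.16 ± 0.06, and -0.13 without R12), with overlapping ranges. In DG the smallest was that of Kcnq3, at 0.225, with 144, 157 and 182 in poor performers, against 112, 132 and 153 in good performers (0.25 ± 0.07); in the series values the difference was 0.05. In CA3 no gene had an adjusted p under 0.943. A p above the threshold does not show that the classes are alike.

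Partners of potassium channels (20 of 24 listed genes on the array) were read beside them. With age, 2 of 16 tested partners were higher and 2 lower in CA1, 2 and 3 in CA3, and 2 and 1 in DG, against 20.5% and 7.21% of all probe sets in CA1, 15.2% and 4.86% in CA3 and 8.2% and 2.1% in DG. Dpp6, which traffics Kv4 channels to the surface, was the one higher in all 3 regions in both signals: 0.68 ± 0.22 in CA1, 0.77 ± 0.09 in CA3 and 0.56 ± 0.15 in DG. Its relative Dpp10 was lower with age in CA3 (-0.69 ± 0.17). Abcc8 was called lower with age in CA1 in dChip signals (-0.785 ± 0.124, limma, adjusted p = 0.00151) but not in the series values (0.0237). In CA3 and DG Abcc8 was not called in either signal. With diet in DG, 5 of 17 were higher and 0 lower, against 12.4% and 19.4% of all probe sets; Amigo1, a companion of Kv2 channels, differed by 0.20, the scaffold Dlg4 (PSD-95) by 0.47, the pacemaker channel Hcn2 by 0.54 and Stx1a by 0.39, each in both signals. The fifth, Hcn4, and its age calls are left without a fold, because its probe set was present on 0 of 45 arrays. In CA3, 2 partners were called higher and 1 lower with diet, none in both signals, and in CA1 0 of 17 were called.

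Pumps and cotransporters, which restore the potassium gradient, were called higher in old animals in 4 of 10 cases in CA1, 3 in CA3 and 3 in DG, against 20.5%, 15.2% and 8.2% of all probe sets, and lower in 0. Atp1b2, a beta subunit of the sodium-potassium pump that is prominent in glia, differed with age by 0.47 ± 0.06 in CA1 (limma, adjusted p = 0.000671) and by 0.36 ± 0.08 in DG (0.0244), called in both signals, and by 0.21 in CA3, where it was not called. Atp1b1, the more widespread beta subunit, was called higher in CA1 (0.21 ± 0.06) and CA3 (0.21 ± 0.06) in dChip signals alone. With diet in DG, 2 of 10 were called higher, against 12.4%. With diet in CA1 and CA3, and with performance in each region, 0 of 10 pumps were called.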

How the data were processed

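Hippocampal CA1, CA3 and dentate gyrus RNA of 15 rats was read on 45 Affymetrix arrays. The authors deposited dChip signal intensities on a linear scale, in a table of 27 ad libitum arrays, a table of 36 arrays of old animals and regional tables, with detection calls (present, marginal or absent, an other unit). A second deposited intensity per array, here called the series value, has no stated software. Per the authors' deposited description, age arrays were normalised per region and diet arrays together, the reverse of how the tables are laid out; dChip version and probe model are not named in the sources used here. The folds and p-values of changed probe sets are the authors', as deposited; folds were used only where named.

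Signals plus 16 were taken to log2, probe sets above the 40th percentile of the mean kept (18625 per table) and tested with limma 3.58.1 in R 4.3.3 with Benjamini-Hochberg adjustment across the kept probe sets, two-sided at 0.05. Region fits had the animal as a fixed block. Interactions of region with age and with diet took it as a random block (correlations 0.0288 and 0.09). Replicates are separate animals; array numbers limit the precision. Replicate numbers in titles did not pair animals: same-numbered arrays of different classes correlated by -0.0068 over 25 pairs (age table) and -0.0084 over 50 (diet table). ALMA CA3 replicate 2 carries a repeated animal code and was placed with the animal left without a CA3 array. The CRO_GP DG replicate 2 description names the other performance class; its title was followed. All 74 gene IDs matched RefSeq. Per comparison the text names, of genes called in both signals in 1 direction, up to 6 of the largest dChip difference each way, up to 2 each way called in dChip signals alone, and, where none was called, the 2 of smallest p each way. It adds the brightest gene of each family and any gene over 2-fold between regions in both signals; other genes named were chosen after their values were seen. Some genes that meet these rules are not reported here. Members, marker lists and tests were chosen with earlier results of these data known. The fits were tested on simulated data.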

Additional observations from a re-analysis of the deposited data

Results flagged for a closer look

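A sample was picked out where its gap to the nearest other array of its group, divided by the group's range, passed Dixon's critical value. This happened in 24 of 156 groups of 6 or 9 arrays tested. Dixon's value is set for about 1 in 20 independent groups. The groups here share arrays, most of their genes were picked by their calls, and those of 9 arrays pool both ages. The 24 are therefore not set against that rate. Values are dChip signals.

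The CA1 array of restricted poor performer R12 (CRO_PP CA1 replicate 3), marked by the authors as an outlier, accounts for 8 of them. It was the lowest of its 6 arrays for Kcna1 (734), Kcnh1 (268), Kcnv1 (738), Kcnd1 (91.7), Kcna4 (484) and Kcnab2 (114), and the highest for Kcnt1 (895) and Kcnj14 (674). The CA3 array of the same animal (CRO_PP CA3 replicate 4) was the lowest for Kcnip2 (3462), Kcnd1 (134) and Kcnk1 (54.6) and the highest for Kcnj14 (432). In DG, CRO_PP replicate 3 was the lowest for Kcns1 (110).

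Among ad libitum arrays, ALO_GP replicate 1 was the highest for Kcna5 in CA3 (195) and CA1 (308) and for Kcnk2 in DG (2391). ALMA replicate 1 was the lowest for Kcng2 in CA3 (320) and the highest for Kcns1 in CA3 (218) and CA1 (143). ALO_PP replicate 1 was the lowest for Kcna1 in CA1 (731) and Kcnab1 in DG (4398). ALO_PP DG replicate 3 was the lowest for Kcnj11 among old ad libitum arrays, at 1598 in the age table and 1742 in the diet table. ALO_PP CA3 replicate 4 was the lowest for Kcnab1 (5022).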

How the results depend on the processing

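Counts below are of potassium channel genes called. Within the restricted animals of the low DapX set, 0 were called in CA3 against CA1 and 0 in DG against CA1 (15 and 16 with all restricted animals); this setting, chosen after seeing the data, has fewer animals. Age in CA3 (8) gave 5 in the series values, 5 without the filter and 4 with the replicate block, and age in DG (4) gave 1 in the series values. Diet in CA3 (3) gave 1 without the filter, 5 in the regional dChip table and 0 within the middle DapX set, which holds 1 restricted array. Leaving out 1 animal or array at a time gave 7 to 16 for DG against CA3 in restricted animals, 5 to 10 for age in CA1, 0 to 10 for age in CA3, 0 to 7 for age in DG, 0 to 1 for diet in CA1, 1 to 10 for diet in CA3 and 0 to 1 for diet by region; the highest of DG against CA3, diet in CA3, diet in CA1 and diet by region came without animal R12, and the lowest for age without ALMA arrays (replicate 2 in CA1, 3 in CA3, and 1 or 2 in DG). Other direction was seen in the series values for Kcnd1 in CA3 against CA1, restricted (-0.021), Kcnj3 with age in DG (0.046), and Kcns3 with diet in CA1 (-0.26), with diet in DG (-0.036) and with performance in CA1 (-0.19), and in the regional dChip table for Kcns3 in CA1 (-0.38) and DG (-0.19). The cause was not tested. For single genes that met the naming rule, results were counted per gene and comparison. The series values kept the call and direction of 72 called results, lost the call of 26 and reversed 3. They also reversed 2 of the results not called. The naming rule admits more genes called in both signals than in dChip signals alone. The counts of kept and lost calls in the series values therefore follow in part from that rule. They do not measure how often the signals match. Fits leaving out 1 animal or array reversed 0, kept the call in 719 cases and lost it in 127. Genes called absent on every array have no usable difference.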

Other observations

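The authors' deposited table of changed probe sets names 1 as Kcnh1 that is no member here, with folds of -17.51 for age in CA1, -13.03 in CA3 and -8.98 in DG and 6.117 for diet. The deposited dChip tables annotate it as a transcribed locus. Its dChip signal in the age table was 140 to 266 on the old ad libitum arrays and 1490 to 3676 on the middle-aged arrays, which do not overlap. In the series values it was 18.8 to 50.3 on the 22 arrays of the middle DapX set, which holds the old ad libitum arrays, and 18.5 to 34.4 on the middle-aged arrays. The Kcnh1 probe set described in the report was not called with age in any region.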
